A study of Mus musculus with 4 samples.

Results

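The genes described here are 3 peptide transporters of the SLC15 family (Slc15a2, Slc15a3 and Slc15a4), the bacterial peptide sensors Nod1 and Nod2, and Ripk2, the kinase both sensors recruit. These 6 of the 21878 genes in the count table were taken by symbol. They were grouped for a shared role and chosen by the counts of Slc15a2, known to be far below WT in anti-Act1, so the differences of all 6 between the groups are given as descriptions, and no test of them is read as support. RNA was sequenced from macrophages grown out of the bone marrow of C57BL/6 mice of 8 weeks and kept for 48 h beside MC38, a mouse colon cancer cell line, on the far side of a porous insert. There were 2 libraries from wild type mice (WT) and 2 from anti-Act1 mice, a line described as a macrophage-specific knockdown of the adaptor Act1, whose driving promoter is not given in the sources used here. The labels give the same strain, age and coculture for all 4 libraries, while a figure legend of the study gives a shorter coculture. The labels and that legend name wild type and anti-Act1 mice. A methods passage of the study instead names Apc^Min/+ mice and AA mice (Apc^Min/+ with anti-Act1) for its pathway comparison. The genotypes given here rest on the labels. The study calls the 2 libraries of a group biological replicates without saying whether each came from its own mouse, so errors and p-values measure the spread between these libraries.

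Macrophages break down bacterial cell wall and free muropeptides, small fragments of peptidoglycan. SLC15 transporters move peptides together with protons. PEPT2, the product of Slc15a2, sits at the cell surface, while the products of Slc15a3 (PHT2) and Slc15a4 (PHT1) sit in the membrane of endosomes and lysosomes and pass histidine and peptides, muramyl dipeptide among them, into the cytosol. There NOD1 senses peptides with diaminopimelic acid and NOD2 senses muramyl dipeptide, and both bind RIPK2 through their CARD domains. RIPK2 then gathers the ubiquitin ligase XIAP and the kinases TAK1 and IKK, which switch on NF-κB.

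The libraries held 55435063 to 75062945 counts, with both WT libraries deeper than both anti-Act1 libraries. A count of 0 allows up to 3 counts, or 0.0395 to 0.0549 CPM (counts scaled to a common library total after TMM), which covers counting error only. Traf3ip2, the gene of Act1, was at 6.98 and 7.54 CPM in the WT libraries and at 9.63 and 7.84 CPM in the anti-Act1 libraries (log2 difference 0.27, SE 0.12, edgeR adjusted p = 0.117), so the transcript was not seen to be lower. The log2 difference of Traf3ip2 was 0.11 to 0.41 with one library left out. The study reports that Act1 expression was reduced in bone marrow macrophages of these mice, without naming the measure or a coculture. Every direction below rests on the labels. Ddx3y, a gene of the Y chromosome, had 5741 and 7360 counts in the WT libraries and 0 counts in both anti-Act1 libraries, so a difference in sex or in the Y chromosome cannot be told apart from the genotype label. All 10 macrophage markers were tested, and their summed level was 24994 to 25953 CPM in the WT libraries and 25683 to 26523 CPM in the anti-Act1 libraries. Most of this sum was Lyz2. The other 9 markers summed to 9143 and 9183 CPM in WT and to 8548 and 8786 CPM in anti-Act1, lower without overlap. That sum was added after the values were seen, and nothing is read from it. Of all single genes tested, 28.7% were lower in anti-Act1 without overlap in CPM. At an edgeR adjusted p under 0.05, 3 of the 10 markers were lower (Itgam, Mrc1 and Mertk) and 1 was higher (Cd14). Of 11 epithelial markers, listed as a possible sign of MC38 cells, 6 were at 0 counts in every library (Krt8, Krt18, Krt20, Cldn3, Cldn4 and Cdx2). The sum of the 11 was 0.540 to 0.898 CPM in WT and 0.330 to 0.874 CPM in anti-Act1. Whether MC38 cells express these markers is not shown by these data, so carry-over of MC38 cells cannot be judged from them. Because these are bulk libraries, fewer cells of a type and less RNA per cell cannot be told apart.

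The 250 bases before the RefSeq start of Slc15a2, the gene with the widest difference between the groups, are shown beside those of Slc15a4, a family member whose groups overlapped. Both are from GRCm38.p6 on the minus strand, written 5′ to 3′, and capitals mark any of the motifs searched. The Slc15a2 stretch is chr16:36784963-36785212 and the Slc15a4 stretch is chr5:127617393-127617642.
Slc15a2: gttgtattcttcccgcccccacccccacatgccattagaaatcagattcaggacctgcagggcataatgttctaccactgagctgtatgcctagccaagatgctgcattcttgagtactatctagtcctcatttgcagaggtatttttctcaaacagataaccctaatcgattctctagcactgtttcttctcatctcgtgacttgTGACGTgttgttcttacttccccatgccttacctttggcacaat
Slc15a4: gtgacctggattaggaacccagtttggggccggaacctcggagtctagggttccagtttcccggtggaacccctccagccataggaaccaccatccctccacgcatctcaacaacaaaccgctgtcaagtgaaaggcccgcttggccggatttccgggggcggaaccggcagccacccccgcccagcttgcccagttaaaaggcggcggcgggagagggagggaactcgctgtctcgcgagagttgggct

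The search covered 8 motifs on both strands, namely GAGGAA (the core bound by PU.1), TGANTCA (AP-1), TGACGT (the core of the cAMP response element), TTCNNNGAA (the GAS site of STAT factors), the core of the interferon response element (ISRE), the κB site of NF-κB, TTGCNNAA (C/EBP) and CACGTG (the E-box). The Slc15a2 window held 1 match, TGACGT starting 44 bases before the start, a sequence present in 6.47% of 32851 windows of the same length. The Slc15a4, Nod2 and first Nod1 windows held 0 matches, and the window of a second Nod1 start held 1 GAS match (present in 7.02% of windows). GC content was 45.2% in the Slc15a2 window, lower than in Slc15a4 (62.8%) and Nod2 (61.2%), against a median of 52.4% over all windows. Of the 6 genes, 4 had a window in the RefSeq table, and a match or its absence says nothing of whether a factor binds.

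Slc15a2 had 467 and 601 counts in the WT libraries and 47 and 38 in the anti-Act1 libraries. Its level was 7.23 and 7.92 CPM in WT and 0.761 and 0.696 CPM in anti-Act1. Both anti-Act1 libraries lay far below both WT libraries, yet well above the limit set by a count of 0, so the transcript was low there but present. The mean was 7.57 ± 0.488 CPM in WT and 0.728 ± 0.0461 CPM in anti-Act1 (SD, n = 2), a log2 difference of −3.37 (SE 0.19, 95% interval −3.75 to −3.00). On the linear scale this fitted difference was 10.4-fold lower in anti-Act1, with an interval of 7.99 to 13.4. Among 10892 tested genes with a mean of at least 1 CPM, 4 had a lower log2 difference than Slc15a2, and all 4 are Y-linked. The other 4 tested genes with lower values were scarcer still, namely Ikzf3, Cd207, Esco2 and Retnlg, each with a mean of at most 0.156 CPM over the libraries. Slc15a2 was picked for its fall in this contrast, and it meets the minimum of 1 CPM through the WT libraries. Nothing is read from its place among these genes. The exons of Slc15a2 share 0 bases with another gene in GENCODE M21, which places only a processed pseudogene inside it.

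**Figure D1:**
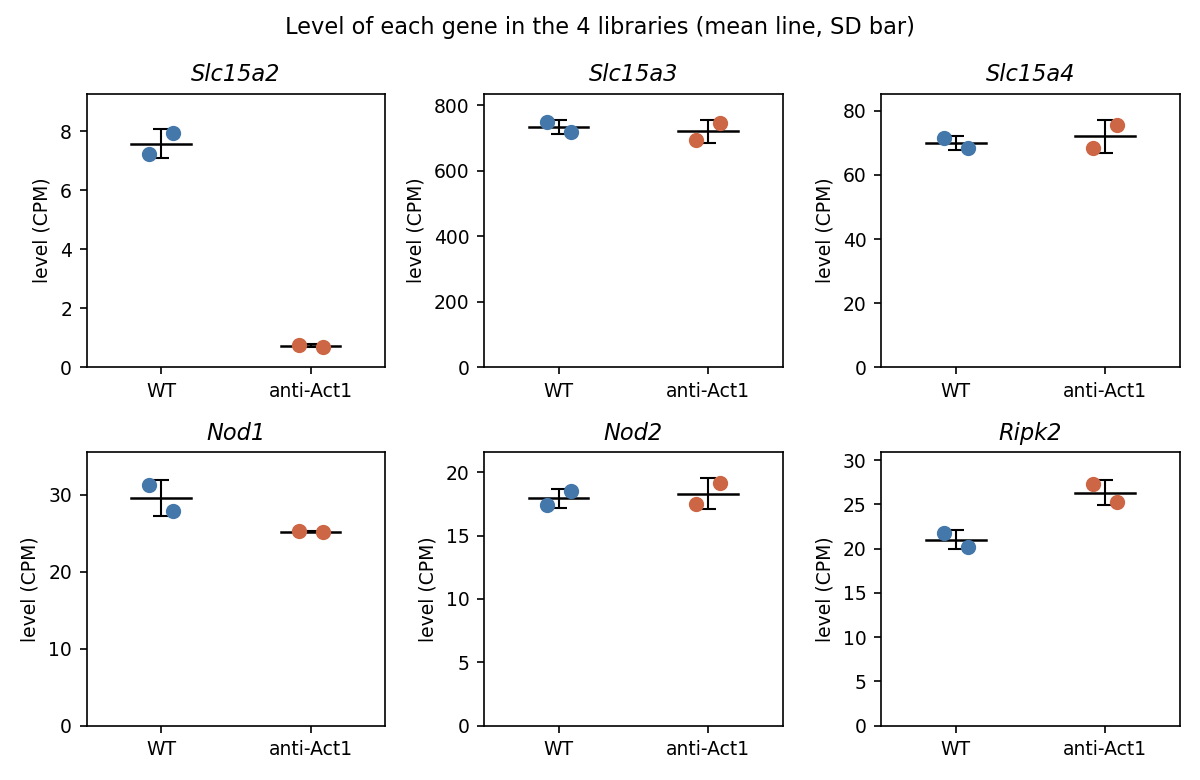
Level of each of the 6 genes in CPM (vertical axes from 0, each with its own scale) in the 2 WT and 2 anti-Act1 libraries, with points for libraries, a line for the mean and bars for the SD. Slc15a2 is at 7.23 and 7.92 CPM in WT and at 0.761 and 0.696 CPM in anti-Act1, while the libraries of the groups overlap for Slc15a3, Slc15a4 and Nod2.

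The transporters of the endolysosome were read far more often than Slc15a2 and their groups overlapped. Slc15a3 was at 749.7 and 719.5 CPM in the WT libraries and at 694.1 and 745.6 CPM in the anti-Act1 libraries. The lowest and the highest library thus belonged to different groups with the others between them, and the log2 difference was −0.03 (SE 0.05, 95% interval −0.13 to 0.07). Slc15a3 shares 1541 exon bases with Tmem132a on the opposite strand, and whether the counting used strand is not given, so its reads are uncertain. Tmem132a itself fell from 155.1 and 149.2 CPM to 124.7 and 132.2 CPM (log2 difference −0.24, edgeR adjusted p = 0.000439, and 0.0566 without anti-Act1 replicate 1). Slc15a4 was at 71.5 and 68.4 CPM in WT and at 68.4 and 75.7 CPM in anti-Act1, a log2 difference of 0.04 (SE 0.06, 95% interval −0.08 to 0.16). Slc15a4 shares 427 exon bases with Gm43474 on the opposite strand, which was not among the genes counted, so the limit of strand applies here too. The sign of both differences changed when a library was left out, with ranges of −0.08 to 0.02 for Slc15a3 and −0.03 to 0.12 for Slc15a4.

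Nod1 was at 31.2 and 27.9 CPM in the WT libraries and at 25.2 and 25.1 CPM in the anti-Act1 libraries, so both anti-Act1 libraries were below both WT libraries. The mean was 29.6 ± 2.37 CPM in WT and 25.2 ± 0.0969 CPM in anti-Act1 (SD, n = 2), a log2 difference of −0.23 (SE 0.07, 95% interval −0.38 to −0.08). This difference was between −0.31 and −0.15 when one library was left out. Nod2 was at 17.4 and 18.5 CPM in WT and at 17.5 and 19.2 CPM in anti-Act1, with overlapping groups and a log2 difference of 0.03 (SE 0.08, 95% interval −0.14 to 0.19). Its range without one library was −0.04 to 0.10, so its sign was not fixed.

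Ripk2 was at 21.7 and 20.2 CPM in the WT libraries and at 27.3 and 25.3 CPM in the anti-Act1 libraries. Both anti-Act1 libraries lay above both WT libraries, the reverse of Slc15a2 and Nod1. The mean was 21.0 ± 1.07 CPM in WT and 26.3 ± 1.41 CPM in anti-Act1 (SD, n = 2), a log2 difference of 0.33 (SE 0.08, 95% interval 0.18 to 0.48). Low counts removed none of the 6 genes before testing. For the record of the fit alone, an adjusted p under 0.05 in edgeR's test was reached by 3 of them (1 higher and 2 lower), and by 20.7% of the 12494 genes tested, with 10.9% higher and 9.76% lower in anti-Act1. The groups did not overlap for 3 of the 6, against 57.1% of all genes tested (28.4% higher and 28.7% lower in anti-Act1). A log2 difference of at least 1 in either direction was seen for Slc15a2 alone among the 6 and for 3.33% of all genes tested. Since the genes were picked with this contrast known, nothing is read from these counts.

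**Figure D2:**
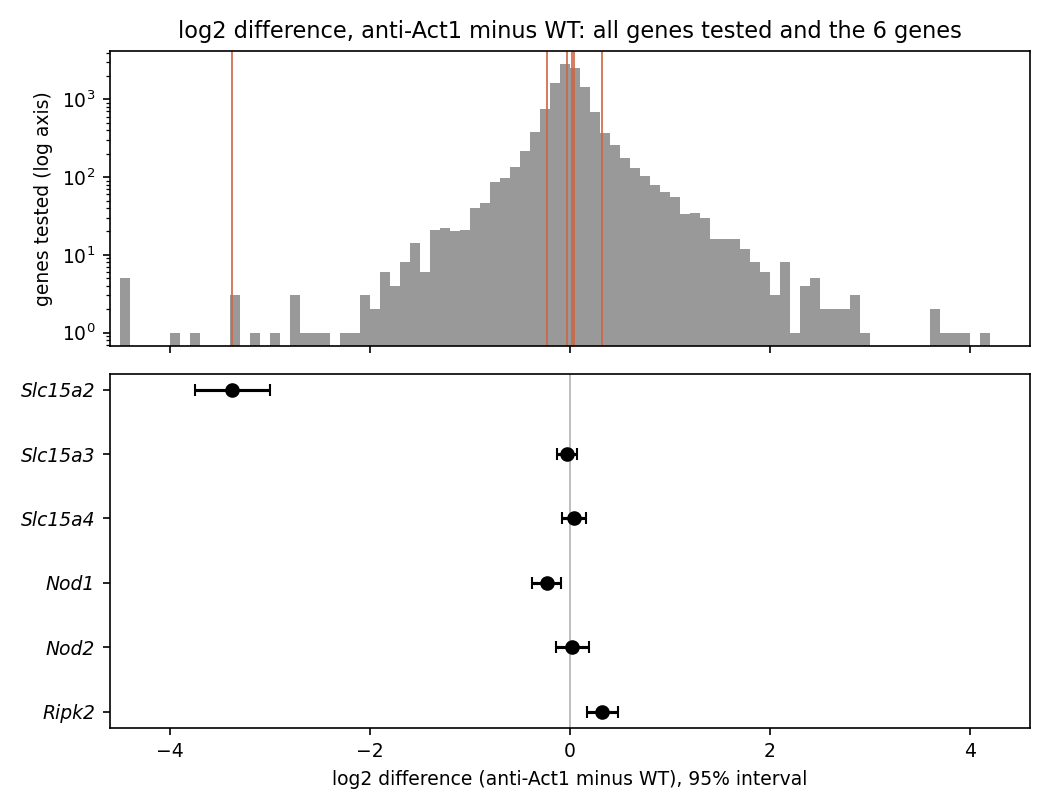
The upper panel counts all 12494 genes tested by log2 difference (anti-Act1 minus WT, log axis for the number of genes, values beyond 4.5 drawn at the edge) with lines at the 6 genes. The lower panel gives each of the 6 with its 95% interval, from Slc15a2 at −3.37 to Ripk2 at 0.33.

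Per gene length, the order of levels was the same in both groups. In FPKM (counts scaled by gene length and library total), Slc15a3 was at 310.2 to 321.7 in WT and 295.2 to 313.2 in anti-Act1, above 98.4% of tested genes in the latter. Slc15a4 came next at 26.4 to 27.4 FPKM in WT and 26.0 to 28.4 FPKM in anti-Act1. Ripk2 was at 8.69 to 9.29 FPKM in WT and 10.6 to 11.6 FPKM in anti-Act1, ahead of Nod1 at 6.67 to 7.44 and 5.85 to 5.95 FPKM. Nod2 followed at 4.17 to 4.45 FPKM in WT and 4.14 to 4.49 FPKM in anti-Act1, and Slc15a2 was last, at 2.54 to 2.79 and 0.239 to 0.265 FPKM. Neighbours in this order did not overlap within either group. Slc15a2 stood above 28.6% of the tested genes in WT and above 10.0% in anti-Act1.

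Slc15a2 was a small part of the SLC15 transcripts in these macrophages. Of the summed FPKM of Slc15a2, Slc15a3 and Slc15a4, Slc15a2 held 0.722% and 0.823% in the WT libraries and 0.0824% and 0.0700% in the anti-Act1 libraries. Slc15a3 held 91.4% to 91.8% in every library. As Slc15a3 shares exon bases with Tmem132a, its reads may be too many or too few. These shares and the total of the 3 genes are uncertain to that extent. The summed FPKM of the 3 transporters was 351.7 and 339.4 in WT and 321.5 and 341.8 in anti-Act1, so this total overlapped between the groups. On the sensing side, the ratio of Ripk2 to Nod1 plus Nod2 (FPKM) was 0.800 and 0.781 in WT against 1.14 and 1.02 in anti-Act1, with no overlap. This ratio restates the levels of Ripk2 and Nod1 above, whose groups did not overlap either, and nothing more is read from it.

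Of 5 other transporters listed, Slc15a1 (the intestinal PEPT1) and Slc15a5 had 0 counts in every library and Slc46a2 had at most 1. Slc46a3, a lysosomal transporter that handles muropeptides, fell from 62.7 and 61.9 CPM to 40.8 and 45.8 CPM (log2 difference −0.53, SE 0.06, edgeR adjusted p = 4.34e-09). Slc46a1, the proton-coupled folate transporter, rose from 22.8 and 22.4 CPM to 28.5 and 29.6 CPM (log2 difference 0.36, SE 0.07, edgeR adjusted p = 0.000131). Both of these calls stood in all 13 alternatives. Of 5 tested genes of peptidoglycan handling, 1 rose and 0 fell. Counts in this list and those below stand beside 10.9% of all genes tested called higher and 9.76% called lower. Lyz2, the main lysozyme of macrophages, was at 15811 to 16811 CPM in WT and 17135 to 17736 CPM in anti-Act1 (log2 difference 0.10, edgeR adjusted p = 0.162). Without WT replicate 1 Lyz2 passed the threshold (edgeR adjusted p = 0.0496), which made 2 called genes in this list of 5 tested. Lyz1 rose from 11.0 and 10.9 CPM to 16.7 and 17.9 CPM (log2 difference 0.66, edgeR adjusted p = 1.44e-07), but it is nearly identical to Lyz2, so counting could have split their reads. Nagk, the kinase that phosphorylates muramyl dipeptide for NOD2, was at 59.0 to 61.9 CPM in WT and 58.6 to 59.6 CPM in anti-Act1 (log2 difference −0.03, edgeR adjusted p = 0.770). Pglyrp1 and Pglyrp2 had edgeR adjusted p-values of 0.114 and 0.859 at low counts, and Pglyrp3 and Pglyrp4 had 0 counts.

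SLC15A4 also holds the adaptor TASL at the lysosome, through which TLR7 and TLR9 reach the transcription factor IRF5. Of 10 tested genes around this complex, 4 fell and 0 rose, with a median log2 difference of −0.05 against −0.00457 over all genes tested. Tlr9, the sensor of CpG DNA, fell from 17.7 and 17.3 CPM to 11.0 and 11.2 CPM (log2 difference −0.66, SE 0.09, edgeR adjusted p = 1.35e-07). The Tasl gene, listed as 5430427O19Rik, fell from 18.7 and 19.3 CPM to 15.3 and 14.5 CPM (log2 difference −0.35, edgeR adjusted p = 0.00131). Tlr7, the sensor of single-stranded RNA, had a log2 difference of −0.25 (edgeR adjusted p = 0.000375) and Irf5 one of −0.21 (edgeR adjusted p = 0.00183). Tlr7 and 5430427O19Rik lie on the X chromosome, and the part of the Y-linked difference in these values was not tested. Unc93b1, the chaperone of these receptors, had −0.02 (edgeR adjusted p = 0.839), and the Ragulator genes Lamtor1 to Lamtor5, which tie lysosomes to mTORC1, had −0.07 to 0.13 with 0 of 5 called.

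Among 11 tested regulators of the NOD receptors, 1 rose and 3 fell (median log2 difference 0.01). Vim, the gene of vimentin, to which NOD2 binds, rose from 2908 and 2815 CPM to 3341 and 3520 CPM (log2 difference 0.26, edgeR adjusted p = 5.12e-05). Erbb2ip, whose product erbin binds and restrains NOD2, had a log2 difference of −0.27 (edgeR adjusted p = 0.000165). Rac1, a GTPase linked to NOD activation at the membrane, had −0.23 (edgeR adjusted p = 0.00046) and Arhgef2, the exchange factor GEF-H1, had −0.15 (edgeR adjusted p = 0.0269). Arhgef2 did not pass without WT replicate 2 or either anti-Act1 library, with edgeR adjusted p-values of 0.133 to 0.189. Zdhhc5, which palmitoylates both NOD receptors, had 0.04, Atg16l1, the autophagy partner, had 0.04, and neither passed the threshold.

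Of 16 genes of the complex that RIPK2 builds, 2 rose, 2 fell and 12 did not pass the threshold (median log2 difference −0.02). By the same test 20.7% of all genes tested passed. Birc3, the ubiquitin ligase cIAP2 and itself an NF-κB target, rose from 85.5 and 82.4 CPM to 119.2 and 116.7 CPM (log2 difference 0.49, SE 0.05, edgeR adjusted p = 6.11e-10). Traf6, another ubiquitin ligase, rose from 77.3 and 82.5 CPM to 108.6 and 106.1 CPM (log2 difference 0.43, edgeR adjusted p = 3.36e-08). Ikbkb, the kinase IKKβ, had a log2 difference of −0.15 (edgeR adjusted p = 0.0325) and Card9, an adaptor downstream of NOD2, had −0.18 (edgeR adjusted p = 0.0437). Ikbkb did not pass with any one library left out (edgeR adjusted p from 0.0603 to 0.311), and Card9 passed only without WT replicate 2 (0.112 to 0.403 in the others). Leaving out either anti-Act1 library thus left 2 called genes. Xiap, the ligase that RIPK2 signalling depends on, had a log2 difference of −0.12 (edgeR adjusted p = 0.155), but it was called lower without WT replicate 1 (−0.21, edgeR adjusted p = 0.0055) and was at −0.02 without WT replicate 2. The linear ubiquitin ligase genes Rnf31, Rbck1 and Sharpin had 0.06, 0.02 and 0.00, with edgeR adjusted p-values of 0.568, 0.827 and 0.984. The list of brakes of the RIPK2 complex had 8 tested genes, and not all of them need restrain it. Of these, Tnfaip3, the deubiquitinase A20, was called, at 73.5 and 72.9 CPM in WT and 112.5 and 113.5 CPM in anti-Act1 (log2 difference 0.63, edgeR adjusted p = 5.31e-13). The other 7, among them Itch, Cyld and Otulin, did not pass the threshold, although Itch fell without WT replicate 1 (edgeR adjusted p = 0.0436) and Otulin without WT replicate 2 (edgeR adjusted p = 0.009), each making 2 called genes.

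**Figure D3:**
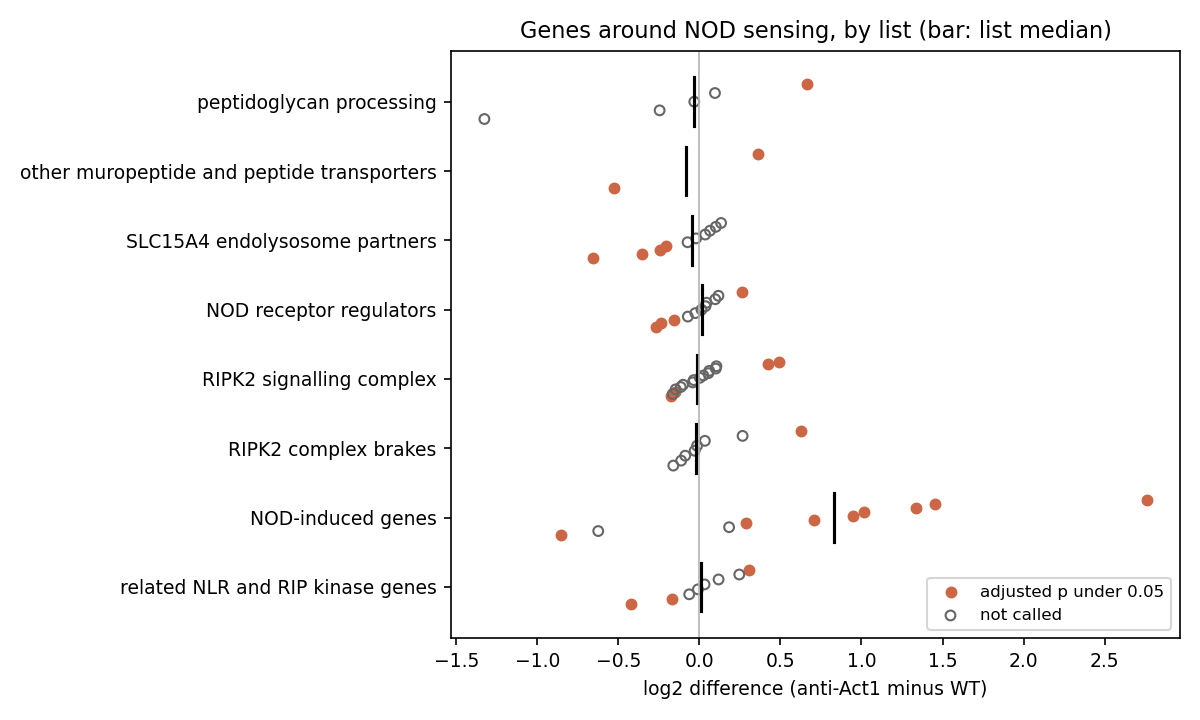
Log2 difference (anti-Act1 minus WT) of each tested gene in the 8 lists, with filled points for an edgeR adjusted p under 0.05 and a bar for the list median. The medians lie between −0.08 and 0.01 except for the NOD-induced genes, whose median is 0.83.

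The genes that NOD ligands are known to induce are also NF-κB targets of many other receptors, and the list was written with earlier results of these data known. Of 10 tested, 7 rose and 1 fell, with a median log2 difference of 0.83. Cxcl1, a neutrophil chemokine, rose from 7.23 and 7.97 CPM to 21.0 and 20.7 CPM (log2 difference 1.46, SE 0.09, edgeR adjusted p = 3.17e-17). Nos2, the inducible nitric oxide synthase, had a log2 difference of 1.34 (edgeR adjusted p = 1.07e-24). Il6 had the largest difference, 2.76 (SE 0.80, edgeR adjusted p = 0.00913), with at most 4 counts in a WT library, and it did not pass without WT replicate 2 or either anti-Act1 library (edgeR adjusted p from 0.0686 to 0.147). Tnf, the inflammatory cytokine TNF, rose from 7.18 and 6.26 CPM to 14.1 and 13.1 CPM (log2 difference 1.02, edgeR adjusted p = 3.29e-10). Ccl2, a monocyte chemokine and the 1 gene of this list that fell, went from 13.6 and 12.8 CPM to 7.01 and 7.60 CPM (log2 difference −0.85, edgeR adjusted p = 1.62e-08). Il10 and Il12b did not pass the threshold, at log2 differences of 0.18 and −0.62.

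Of 8 tested relatives of NOD1, NOD2 and RIPK2, 1 rose and 2 fell (median log2 difference 0.01). Nlrp3, the inflammasome sensor, rose from 64.5 and 65.3 CPM to 79.2 and 81.3 CPM (log2 difference 0.31, edgeR adjusted p = 3.72e-05). Nlrc3, an inhibitory member of the family, had −0.42 (edgeR adjusted p = 0.015), and Ripk1, the kinase of TNF receptor signalling, had −0.17 (edgeR adjusted p = 0.0128). Of these 3, Nlrp3 alone passed without anti-Act1 replicate 1. Nlrc3 also did not pass without WT replicate 1 (edgeR adjusted p = 0.0608), nor Ripk1 without anti-Act1 replicate 2 (edgeR adjusted p = 0.112). Nlrc5, Nlrx1 and Nlrc4 had log2 differences of 0.03, −0.01 and −0.06 and did not pass the threshold.

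The genes around Slc15a2 on chromosome 16 did not have its difference between the groups. Of the 5 tested genes on each side, 3 rose and 0 fell, and their log2 differences ran from −0.62 to 0.42. The lower end is Polq, at under 1 CPM in every library, whose difference was −1.33 with anti-Act1 replicate 2 left out and −0.12 with replicate 1 of that group left out. Fam162a rose by 0.42 (edgeR adjusted p = 3.67e-08), Ccdc58 by 0.35 (edgeR adjusted p = 0.0033) and Hcls1, a signalling adaptor of blood cells, by 0.16 (edgeR adjusted p = 0.0188), all on the log2 scale. Ccdc58 did not pass without anti-Act1 replicate 1 (edgeR adjusted p = 0.0689), and Hcls1 passed only without WT replicate 1 among the fits with a library left out (0.077 to 0.212 in the others). The tested genes next to Slc15a2, 1 on each side, were Cd86, a costimulatory ligand, at 63.1 and 62.2 CPM in WT and 58.3 and 59.7 CPM in anti-Act1 (log2 difference −0.09, edgeR adjusted p = 0.329), and Eaf2, which was lower than Slc15a2 in every library (0.211 to 0.264 CPM) and had a log2 difference of −0.14 (edgeR adjusted p = 0.908).

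**Figure D4:**
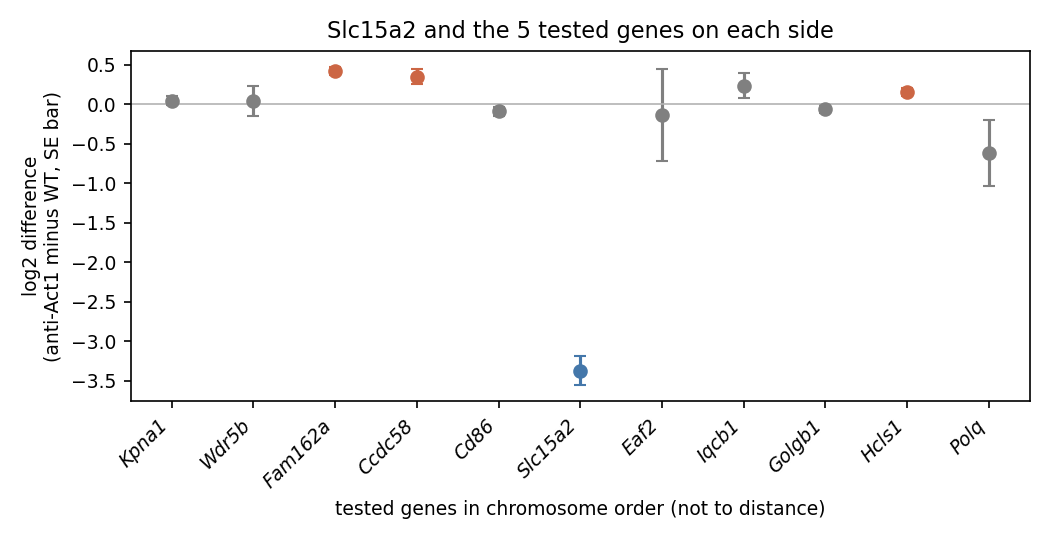
Log2 difference (anti-Act1 minus WT, bars for the SE) of Slc15a2 (blue) and of the 5 tested genes on each side in chromosome order, with genes past an edgeR adjusted p of 0.05 in orange. Slc15a2 is at −3.37, and its 10 neighbours lie between −0.62 and 0.42.

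The genes whose levels were most like that of Slc15a2 over the 4 libraries were low in both anti-Act1 libraries, which follows from how they were chosen. Likeness was the Euclidean distance between log2 CPM centred on each gene's mean, among the genes with a mean of at least 1 CPM, and it is a description of 4 points. Nearest was Dmpk, the myotonic dystrophy protein kinase, at 6.22 and 5.80 CPM in WT and 1.05 and 0.916 CPM in anti-Act1 (distance 0.768). Slco2b1, an organic anion transporter, followed at 11.3 and 10.2 CPM in WT and 2.45 and 3.64 CPM in anti-Act1 (distance 1.58). Itgad, an integrin chain of macrophages, Pcp4l1, and Id1, an inhibitor of helix-loop-helix factors, stood at distances of 1.61, 1.70 and 1.73.

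Some low markers of neutrophils and their precursors moved in the direction of Slc15a2. Of 8 such markers 6 were tested, of which Ngp, Ltf and S100a9 fell and S100a8 rose, at log2 differences of −2.21, −1.58, −1.42 and 0.66. Without anti-Act1 replicate 2 neither Ngp (edgeR adjusted p = 0.0635) nor Ltf (0.125) passed, nor Ltf without WT replicate 2 (0.144). The summed level of the list was 7.21 and 7.34 CPM in WT and 6.67 and 7.61 CPM in anti-Act1, so the sums overlapped. This list was also summed without S100a8, a choice made after the values were seen. The other 7 markers then came to 3.73 and 3.47 CPM in WT and 1.52 and 1.12 CPM in anti-Act1. These sums do not overlap, but S100a8 was the marker called higher, so nothing is read from them. The defining marker Ly6g had 5 counts in WT replicate 1 and 0 counts elsewhere. Of the macrophage markers, Mrc1, Mertk and Itgam fell, at −0.63, −0.40 and −0.31, and Cd14 rose by 0.16 on the log2 scale, a call that was lost without WT replicate 2 (edgeR adjusted p = 0.0896) and without anti-Act1 replicate 1 (0.0749). The part of these markers in the level of Slc15a2 was not tested.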

How the data were processed

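The study discarded reads of low quality or holding adapter or undetermined bases and mapped read pairs with TopHat. The processing notes of the submitters list HTSeq 0.6.1, Bowtie 0.12.2 and the builds mm8 and mm10 without roles, and the annotation is not given in the sources used here. The authors deposited whole counts per gene without normalization, and FPKM, which the authors made from these counts by gene length and column total. All 4 libraries were used. EdgeR 4.0.16 (R 4.3.3) was run with TMM, filterByExpr, genotype as its single term and the quasi-likelihood F test (two-sided), with Benjamini-Hochberg adjustment over 12494 genes; SEs and 95% intervals come from this fit. An exact permutation test of 2 libraries against 2 cannot go below p = 0.333. The members, lists, markers and tests were chosen with earlier results of these data known. Named genes were the members, Traf3ip2, Ddx3y, called list genes (the 4 with the largest change where over 4 were called) with list genes needed to describe a list, the 5 nearest to Slc15a2 in level (log2 CPM, prior count 2) and its called neighbours; the genes with lower log2 differences than Slc15a2, Tmem132a, Ccl2, the uncalled neighbours Cd86, Eaf2 and Polq and the marker genes were named after their values were seen. Other settings tried were DESeq2 1.42.0, its size factors within edgeR, library totals alone, every library holding 10 or more counts, an unfiltered table, a replicate block, limma 3.58.1 on log2 of FPKM plus 1 or 0.1 (FPKM of at least 1 in 2 libraries) or plus 1 unfiltered, and each library left out. Tests were tested on simulated data. Libraries of a group differed beyond sampling noise (chi-square per degree of freedom 10.8 in WT and 7.39 in anti-Act1). Neighbours and chromosomes came from RefSeq (GRCm38.p6, 21326 symbols matched).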

Additional observations from a re-analysis of the deposited data

How the results depend on the processing

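Across 13 alternatives, 178 of 195 values stayed within the replicate spread (log2 differences) or within 1.5 times (counts), and 0 called values changed sign. The log2 difference of Slc15a2 was −1.55 with log2(FPKM + 1), with or without a filter, and −2.97 with log2(FPKM + 0.1), where the pseudocount shrinks low values by construction. It was −3.44 to −3.30 with one library left out. The genes called numbered 2586 in all, 1091 with limma on unfiltered log2(FPKM + 1), and 1671 to 2543 with one library left out, lowest when anti-Act1 replicate 2 was dropped and 1712 when anti-Act1 replicate 1 was. With that limma setting the counts called were 2 for peptidoglycan processing, 2 for the SLC15A4 partners, 1 for the NOD receptor regulators and 2 for the RIPK2 complex; the cause was not tested. With one library left out, the counts ran from 1 to 2 for peptidoglycan processing and for the brakes of the RIPK2 complex, from 2 to 3 for the RIPK2 complex and from 1 to 3 for the related genes. The labels give both groups the replicate numbers 1 and 2, and deviations of same-numbered libraries were hardly correlated across genes (r = −0.03). Whether same-numbered libraries were prepared together is not given. A single correlation over all genes cannot decide it, since a shared step may touch only some genes. With the replicate number as a block, 2406 genes were called in all, and the RIPK2 complex had 2 called genes, both higher, since Ikbkb and Card9 did not pass. Low counts limit the values of Il6, Pglyrp1, Pglyrp2 and Polq, and Slc46a2, Nlrp12 and Ripk4 were too low to be tested.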
